A study of Mus musculus with 2 samples.

Results

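The genes of the proteasome, the protease that destroys ubiquitin-tagged proteins, were followed in islet cells of C57BL/6J mice on a high-fat or a chow diet. Members were all gene symbols of the form Psm, a letter from a to g and a number, pseudogenes left out. This gave 50 of 27998 genes in the gene table. Of these, 49 encode subunits, activators, inhibitors or assembly factors. The last, Psmc3ip, shares the stem of the name but encodes a meiotic recombination factor, and it is given only by its counts. The HFD library held islet cells of 5 wild-type mice given a diet of 60% fat for 6 weeks from weaning, and the chow library those of 4 wild-type mice on regular chow over the same time. Islets of both groups were picked by hand, cultured overnight and dispersed with trypsin before droplet single-cell RNA sequencing, in which each captured transcript 3' end carries a unique molecular identifier (UMI). Each diet has 1 library of pooled mice, so no test between diets was possible and every difference below describes these 2 libraries.

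The HFD library had 4539 barcodes with 68544729 UMIs and the chow library 6509 barcodes with 89292222 UMIs, with medians of 13911 and 12414 UMIs. The libraries share 45 barcode sequences. Cells were typed by the share of their UMIs from hormone genes. Beta cells had at least 20% Ins1 and Ins2, alpha cells at least 5% Gcg, delta cells at least 1% Sst and PP cells at least 15% Ppy. Macrophages were cells outside these types with at least 10 UMIs of C1qa, C1qb and Lyz2, and endothelial cells were those left with at least 5 UMIs over Pecam1, Plvap, Cdh5, Flt1 and Esam. This gave 3026 HFD and 4493 chow beta cells, 379 and 726 alpha cells, 372 and 456 delta cells, 160 and 203 PP cells, 70 and 54 macrophages, and 128 and 178 endothelial cells. Few cells lay near a threshold: 56 kept cells had 15 to 20% insulin UMIs and 46 had 20 to 25%, and for alpha, delta and PP cells and macrophages between 0 and 19 cells lay on either side. All 7 beta markers checked were detected in beta cells of both libraries, and all 7 macrophage markers in macrophages of both. Ins1, Ins2, C1qa, C1qb and Lyz2 are among them and also set the types, so their detection followed from the rule. Detection in summed counts does not set types apart. All 7 beta markers were also detected in alpha cells of both libraries, and all 7 macrophage markers in beta cells of both.

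The proteasome works in 2 parts. The 20S core is a barrel of stacked rings, in which the outer alpha rings form the gate and the inner beta rings carry the catalytic sites. The 19S cap has a base, whose ATPases unfold the substrate, and a lid, which removes ubiquitin. In immune cells and under interferon, the inducible subunits Psmb8, Psmb9 and Psmb10 replace the constitutive catalytic subunits Psmb5, Psmb6 and Psmb7, which gives the immunoproteasome. When proteasome activity falls short, the factor Nfe2l1 (NRF1) raises many of these genes at once through antioxidant response elements. Beta cells, which make large amounts of proinsulin, rely on the proteasome to clear misfolded protein from the endoplasmic reticulum.

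Because the members move together in the results below, their promoters were searched for the core letters of the antioxidant response element, TGACNNNGC, on both strands. RefSeq windows of 300 bases, from 250 before to 50 after the transcript start (GRCm38.p6), were matched by symbol for 41 of 49 members. The motif stood in windows of 6 of these 41 members (14.6%), and in 12.4% of all 32851 windows. Here and below, shares of members count genes with the letters in any window, and shares of all windows count windows. The 41 members had 44 windows, of which 6 held this motif. The 6 members were Psmb5, Psmb6, Psmc6, Psmd9, Psmd12 and Psme4. Psmb5 and Psmb6 are shown because they were among the members with the lowest HFD over chow ratio in beta cells, and Psme4 because it carries the same letters and was not lower. Capitals mark the motif in either orientation.
Psmb5 promoter, chr14:54617946-54618245, minus strand: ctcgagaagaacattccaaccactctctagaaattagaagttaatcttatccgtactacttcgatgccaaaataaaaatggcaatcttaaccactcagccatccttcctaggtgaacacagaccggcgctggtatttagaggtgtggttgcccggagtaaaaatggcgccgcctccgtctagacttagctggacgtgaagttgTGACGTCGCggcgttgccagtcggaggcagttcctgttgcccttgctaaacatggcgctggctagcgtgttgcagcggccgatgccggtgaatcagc
Psmb6 promoter, chr11:70525107-70525406, plus strand: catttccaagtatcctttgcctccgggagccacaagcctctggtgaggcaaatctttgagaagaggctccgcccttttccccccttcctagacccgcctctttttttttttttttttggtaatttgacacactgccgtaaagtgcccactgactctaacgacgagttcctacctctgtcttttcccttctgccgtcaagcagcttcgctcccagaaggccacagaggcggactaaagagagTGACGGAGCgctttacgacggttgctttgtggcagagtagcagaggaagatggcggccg
Psme4 promoter, chr11:30771525-30771824, plus strand: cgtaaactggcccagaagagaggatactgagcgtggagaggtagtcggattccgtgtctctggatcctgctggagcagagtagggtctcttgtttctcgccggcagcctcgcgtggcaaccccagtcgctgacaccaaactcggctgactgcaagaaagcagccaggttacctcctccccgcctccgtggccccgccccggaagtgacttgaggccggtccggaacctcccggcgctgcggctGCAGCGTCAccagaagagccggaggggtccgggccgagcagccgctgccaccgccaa
The motif began 47 bases before the transcript start of Psmb5 and 9 bases before that of Psmb6. Members whose window held it had a median relative log2 ratio of -0.57 in beta cells, against -0.85 for members whose window did not. The letters CCAAT, searched on both strands, were in windows of 34.1% of the members and in 37.4% of all windows. The interferon-stimulated core, GAAA followed after 2 bases by GAAA on either strand, was in windows of 5 members, Psmb3, Psmd4, Psmd9, Psme1 and Psmg4 (12.2%, against 3.44% of all windows). A heat shock core, GAA, TTC and GAA each 2 bases apart, was in none of the member windows and in 0.603% of all windows. These matches describe letters in a window only.

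In beta cells, genes of the proteasome were lower in the HFD library almost throughout. Values are UMIs of a gene per 1000000 UMIs outside 7 hormone genes (CPM here), summed over the cells of a type, with exact Poisson 95% intervals. These intervals, like all others here, cover counting error only. The log2 ratio of HFD over chow is given relative to the median ratio of all genes tested, which was 0.18 in beta cells. Genes with a summed count of at least 50 in the type were tested. The 49 proteasome genes together had 3874 CPM in HFD and 6312 CPM in chow beta cells, a relative log2 ratio of -0.88 (interval -0.89 to -0.87). Of 47 members tested, 45 were below the median of all genes and 37 were lower by 0.5 or more on the log2 scale, a size reached by 12.3% of the 12284 genes tested. None of the 47 was higher by 0.5 or more, a size reached by 6.06% of all genes. The median of the members was -0.81 and that of all genes 0 by construction. Scaled to all UMIs with no such centring, 42 members were below 0, against 29.7% of all genes. Lower by 0.5 or more were then 29 members, against 6.64% of all genes. Counted per cell without scaling, an average beta cell had 26.0 proteasome UMIs in the HFD library and 38.5 in the chow library, although the median number of non-hormone UMIs per cell was higher in HFD (6671, against 5865 in chow).

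**Figure D1:**
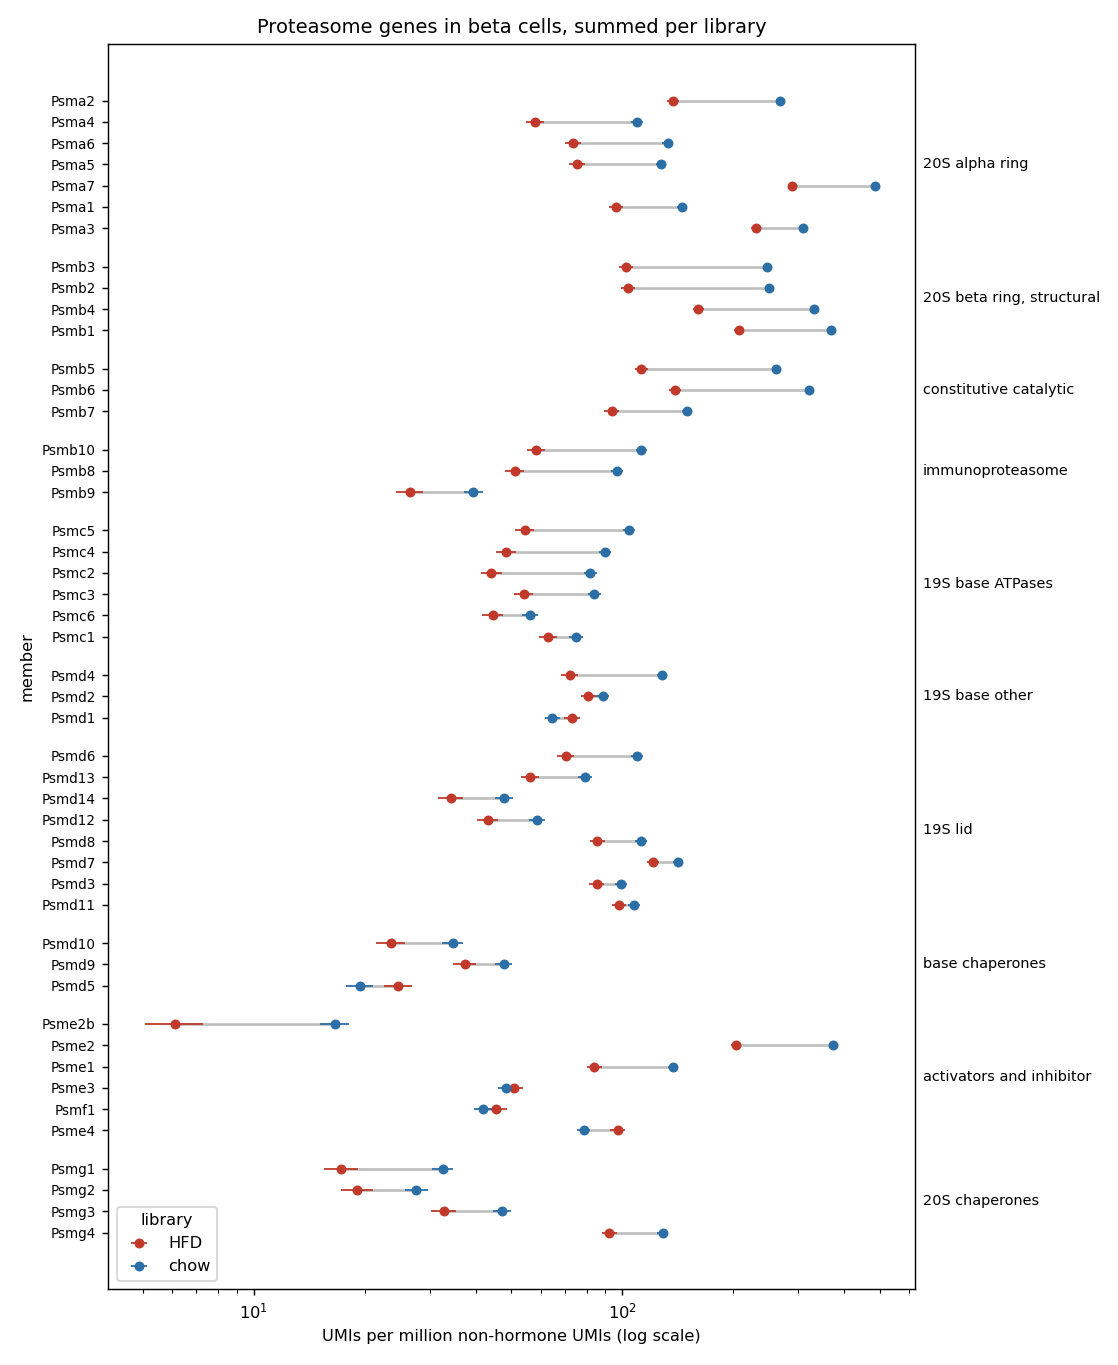
UMIs per 1000000 non-hormone UMIs (log axis) of the 47 tested proteasome genes in beta cells, HFD in red and chow in blue, with Poisson 95% intervals, ordered within each part of the complex by the relative log2 ratio. The red point lies to the left of the blue one except for Psmd1, Psmd5, Psme3, Psme4 and Psmf1.

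Other features moved between the libraries along with these genes. In beta cells, the heat shock gene Hspa1a had 5.26 and Cd63 308 per 1000000 of all UMIs in HFD, against 62.1 and 892 in chow. The median share of mitochondrial UMIs was 3.31% in HFD and 3.08% in chow beta cells. The 7 macrophage markers summed to 42.6 and 28.0 per 1000000 of all UMIs in HFD and chow beta cells, and the 5 alpha markers to 999 and 1951. The 4 ductal markers summed to 20.02 and 85.3, the 5 acinar markers to 4.11 and 15.4, and the 5 endothelial markers to 18.5 and 15.1. For the 4 mesenchymal markers the sums were 6.24 and 0.63, for 3 B cell markers 25.5 and 12.9, and for 2 T cell markers 0.02 and 0. Those of the 4 delta markers were 189 and 235, and those of the 3 PP markers 3947 and 3618. No gene of the macrophage, alpha, acinar and endothelial lists was at 0 in beta cells of either library, while the ductal gene Cftr was at 0 in HFD. The part of these features in the proteasome result was not tested, apart from the comparisons at equal Cd63 and without Hspa1a given below.

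The length of a transcript also went with the ratio. Among genes whose longest coding transcript in GENCODE M21 is under 1000 bases, 51.9% were lower by 0.5 or more in HFD beta cells. The share was 37.2% from 1000 to 1500 bases, 15.9% from 1500 to 2500 bases and 4.3% from 2500 bases on. The members in these 4 classes numbered 8, 16, 13 and 10, and 8, 16, 10 and 3 of them were lower by that size. Their medians were -1.39, -0.93, -0.66 and -0.21, against -0.52, -0.38, -0.15 and 0.08 for all genes of the same class. The median of the members was thus below that of all genes in each class. Single members did not all follow the order of the class medians: Psma2 (-1.14) is in the longest class and Psmg4 (-0.66) in the shortest. The longest annotated transcript need not be the one that these cells express, so the class of a single gene is uncertain. In alpha cells the 4 medians of all genes lay closer together, at -0.10, -0.05, 0.00 and 0.02. Whether length bears on the beta cell result was not tested further.

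The alpha ring, which opens and closes the core, was lower as a whole. All 7 of its genes, Psma1 to Psma7, were lower by 0.5 or more, with ratios from -1.14 to -0.60. Psma2 (ENSMUSG00000015671) had 137 CPM (132 to 142) in HFD and 267 CPM (261 to 273) in chow beta cells, a relative log2 ratio of -1.14 (interval -1.21 to -1.08). Psma4 had 58.0 CPM in HFD and 109 CPM in chow (-1.09). The smallest difference was that of Psma3, with 230 CPM in HFD and 308 CPM in chow (-0.60). Psma8, the alpha subunit of testis, was counted 1 time in HFD and 0 times in chow beta cells, at or under the floor of 3 counts in both libraries.

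The beta ring showed the largest differences of any part of the complex. Among its structural subunits, Psmb3 (ENSMUSG00000069744) had 102 CPM (98.0 to 107) in HFD and 247 CPM (241 to 252) in chow, a relative ratio of -1.45. Psmb2 had 104 CPM in HFD and 249 CPM in chow (-1.44), and Psmb1 207 CPM in HFD and 369 CPM in chow (-1.01). The constitutive catalytic subunits followed them. Psmb5 (ENSMUSG00000022193), which carries the chymotrypsin-like site, had 112 CPM (108 to 117) in HFD and 261 CPM (255 to 268) in chow (-1.39, interval -1.46 to -1.33). Psmb6, with the caspase-like site, had 139 CPM in HFD and 321 CPM in chow (-1.39), and Psmb7, with the trypsin-like site, had 93.6 CPM in HFD and 150 CPM in chow (-0.86).

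The inducible catalytic subunits were lower as well. Psmb8 (ENSMUSG00000024338), the counterpart of Psmb5, had 51.1 CPM (48.0 to 54.3) in HFD and 96.6 CPM (92.9 to 100) in chow beta cells, a relative ratio of -1.10. Psmb10, the counterpart of Psmb7, had 58.3 CPM in HFD and 113 CPM in chow (-1.13), and Psmb9, the counterpart of Psmb6, had 26.5 CPM in HFD and 39.4 CPM in chow (-0.75). All 3 ratios lay above those of Psmb5 and Psmb6, while those of Psmb8 and Psmb10 lay below that of Psmb7. Psmb11, the catalytic subunit of thymus epithelium, was counted 1 time in HFD and 0 times in chow. Psmc3ip was counted 49 times in HFD and 75 times in chow beta cells.

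In the 19S base, the ATPase genes were lower and the large scaffold genes much less so. Of the 6 ATPase genes, 5 were lower by 0.5 or more. Psmc5 had 54.5 CPM in HFD and 104 CPM in chow (-1.12) and Psmc4 48.4 CPM in HFD and 89.8 CPM in chow (-1.07), while Psmc1 stood at -0.43 with 62.8 CPM in HFD and 74.9 CPM in chow. Psmd4, a ubiquitin receptor of the base, had 72.0 CPM in HFD and 128 CPM in chow (-1.01). The scaffold genes Psmd2 (80.9 CPM in HFD, 88.5 CPM in chow) and Psmd1 (73.0 CPM in HFD, 64.6 CPM in chow) stood at -0.31 and 0.00. The interval of Psmd1, -0.10 to 0.10, spans 0, so its level moved with the median gene. Psmd1 and Psmd2 are in the longest class of transcripts, from 2500 bases on, where the median of all genes was 0.08. The ATPase genes and Psmd4 are in the classes from 1000 to 2500 bases, where it was -0.38 and -0.15. Whether length bears on this difference within the base was not tested.

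All 8 lid genes were below the median of all genes, 5 of them by 0.5 or more, with ratios from -0.82 to -0.31. Psmd6 had 70.2 CPM in HFD and 110 CPM in chow (-0.82) and Psmd13 56.2 CPM in HFD and 79.2 CPM in chow (-0.67). Psmd11 was the least different, with 97.9 CPM in HFD and 108 CPM in chow (-0.31). The summed relative ratio of the lid was -0.53 (interval -0.56 to -0.50), against -0.90 for the alpha ring, -1.24 for the structural subunits of the beta ring, -1.26 for the constitutive catalytic subunits and -0.85 for the base ATPases. The core was thus further below the median gene than the lid in these 2 libraries. The parts also differ in transcript length. Psmb2, Psmb3, Psmb5 and Psmb6 are in the class under 1000 bases, where the median of all genes was -0.52. Lid genes other than Psmd6 are in the classes from 1500 bases on, where it was -0.15 and 0.08. Psma2 and Psma3 of the core are in the longest class. Whether length bears on the difference between core and lid was not tested.

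Assembly factors and regulators were divided. Of the chaperones that build the 20S core, all 4 were lower by 0.5 or more. Psmg1 had 17.2 CPM in HFD and 32.6 CPM in chow (-1.10), Psmg2 had 19.1 CPM in HFD and 27.7 CPM in chow (-0.71), and Psmg4 had 92.2 CPM in HFD and 129 CPM in chow (-0.66). Among the chaperones of the 19S base, Psmd10 (23.5 CPM in HFD, 34.7 CPM in chow) and Psmd9 (37.4 CPM in HFD, 47.7 CPM in chow) stood at -0.74 and -0.53. Psmd5, which holds the base back from the core until it is built, was among the 2 members above the median, with 24.7 CPM in HFD and 19.4 CPM in chow (0.17, interval -0.01 to 0.35). Psmd5 and Psmd9 are in the class of transcripts from 2500 bases on, and the other chaperone genes in the classes under 1500 bases. Whether length bears on their ratios was not tested.

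The activators that can replace the 19S cap went different ways. Psme1 and Psme2 encode the interferon-inducible PA28 alpha and beta subunits. Psme1 had 84.0 CPM in HFD and 137 CPM in chow (-0.88), and Psme2 had 203 CPM in HFD and 373 CPM in chow (-1.05). Psme2b, a close copy of Psme2, stood at -1.62 (6.11 CPM in HFD, 16.6 CPM in chow). Reads of the pair may have been assigned to either gene, so both values are uncertain taken singly. The nuclear activator gene Psme3 (PA28 gamma) had 50.7 CPM in HFD and 48.5 CPM in chow (-0.11). Psme4, which encodes PA200, had 97.1 CPM (92.8 to 101) in HFD and 78.6 CPM (75.3 to 82.0) in chow (0.13, interval 0.04 to 0.22). The inhibitor gene Psmf1 had 45.5 CPM in HFD and 41.9 CPM in chow (-0.06). Psme3, Psme4 and Psmf1 are in the class of transcripts from 2500 bases on, and Psme1, Psme2 and Psme2b in the classes under 1500 bases. Whether length bears on this split was not tested.

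The chow beta cells differed widely among themselves. The median beta cell had 35.1 proteasome UMIs per 10000 non-hormone UMIs in the HFD library (quartiles 28.0 and 44.1) and 55.0 in the chow library (40.3 and 76.4). The SD over cells was 13.9 in HFD and 24.8 in chow. Of HFD beta cells, 89.5% lay under the median chow cell, and of chow beta cells 16.1% lay under the median HFD cell. The distributions overlapped, and the chow one reached far to the right, with its 95th percentile at 104 against 62.9 in HFD. In alpha cells the medians were 61.4 in HFD and 52.4 in chow.

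**Figure D2:**
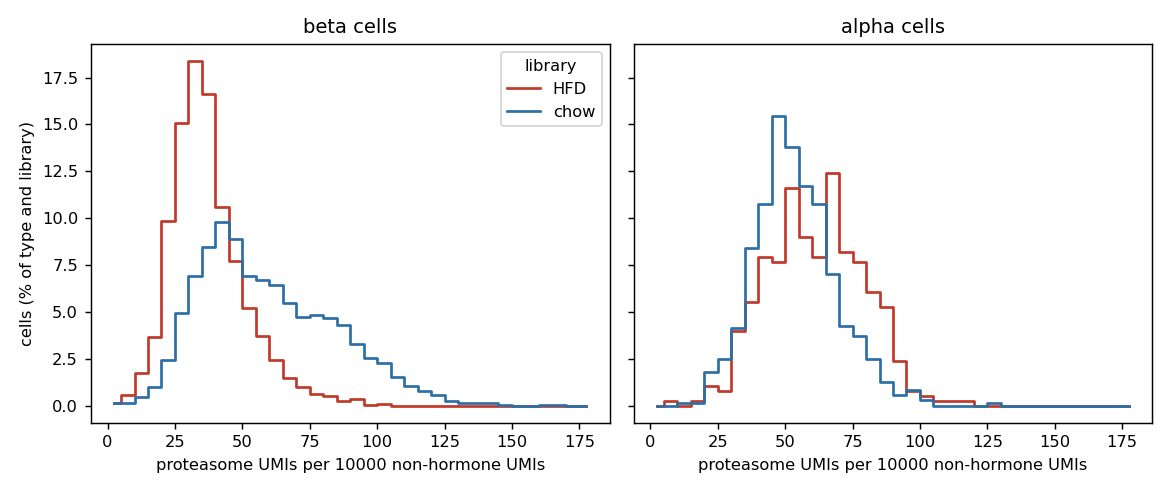
Distribution of proteasome UMIs per 10000 non-hormone UMIs over single beta cells (left) and alpha cells (right), as a percentage of the cells of that type in each library, HFD in red and chow in blue. Beta cell medians were 35.1 in HFD and 55.0 in chow, with a long right shoulder in chow, and alpha cell medians were 61.4 in HFD and 52.4 in chow.

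The study is concerned with beta cells that differ in CD63, a tetraspanin of endosomes and secretory vesicles, so the members were also set against the Cd63 level of the cell. In both libraries, proteasome genes were higher in cells with more Cd63. Within the HFD library, the summed level was 3423, 3780, 4436, 5885 and 6359 CPM in cells with under 5, 5 to 10, 10 to 20, 20 to 40 and 40 or more Cd63 UMIs per 10000. Within the chow library the same classes had 4022, 4516, 5445, 7592 and 8660 CPM. Between cells with 20 or more and cells with under 5, 35 of 46 tested members were higher by 0.5 or more in the HFD library, where 16.6% of all genes were. In the chow library 38 of 47 were, where 16.5% of all genes were. The median relative difference of the members was 0.99 in HFD and 1.08 in chow. Cells of 1 library share their source, so this describes cells and not mice.

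At equal Cd63 the difference between the libraries was smaller. Of HFD beta cells 43.7% had under 5 Cd63 UMIs per 10000 and 5.25% had 20 or more, while 12.8% of chow beta cells had under 5 and 40.6% had 20 or more. In the lowest class, with 1321 HFD and 576 chow cells, 40 of 47 members were below the median of all genes and 10 were lower by 0.5 or more, against 5.34% of all genes. In the class from 20 to 40, with 135 HFD and 1222 chow cells, 46 of 47 were below and 11 were lower by that size, against 11.4% of all genes. In the classes from 5 to 10 and from 10 to 20, 8 members each were lower by that size, against 4.81% and 6.06% of all genes. The class of 40 or more held only 24 HFD cells, and 21 members were lower by that size there, against 23.1% of all genes. Cells were then weighted so that each class held the same share of non-hormone UMIs in both libraries. With this weighting, 44 of 47 members stayed below the median, and 11 were lower by 0.5 or more, against 5.42% of all genes. The median of the members was -0.34. The HFD level was the lower one in each of the 5 classes, but most of the members no longer reached the size of 0.5.

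**Figure D3:**
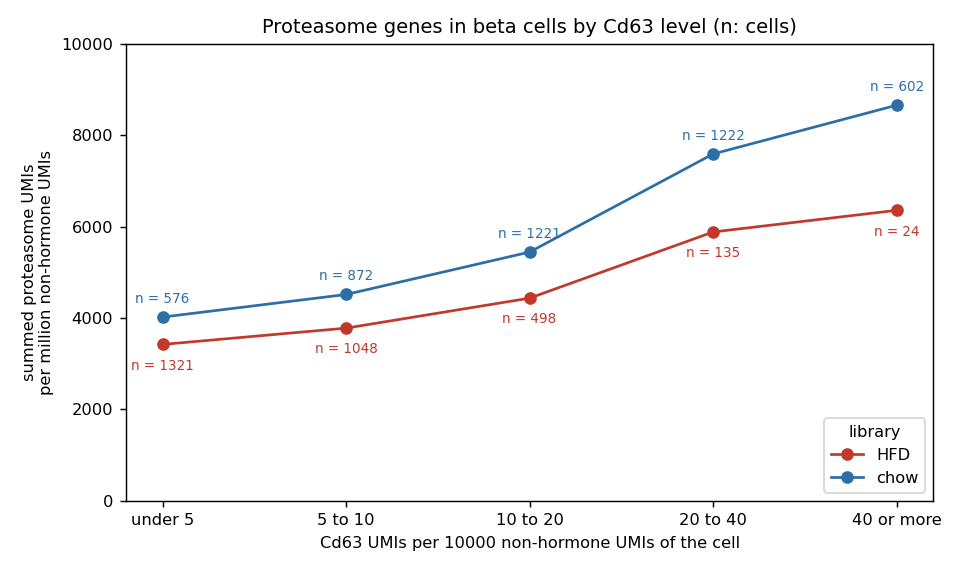
Summed proteasome UMIs per 1000000 non-hormone UMIs in beta cells, by the Cd63 level of the cell, HFD in red and chow in blue, with the number of cells at each point. Both lines rise with Cd63, from 3423 to 6359 CPM across the HFD classes and from 4022 to 8660 CPM across the chow classes, and the HFD line lies below the chow line in every class.

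Heat shock genes, which respond to damaged protein, mark part of the chow beta cells. Among beta cells with 0 UMIs of Hspa1a and Hspa1b, 2898 in HFD and 3008 in chow, the summed proteasome level was 3846 CPM in HFD and 5625 CPM in chow. Of 47 members 44 were below the median of all genes and 30 were lower by 0.5 or more, against 9.27% of all genes. Within each library the level was higher in cells with 3 or more of these UMIs, at 5386 CPM in 30 HFD cells and 7843 CPM in 710 chow cells. These UMIs were not scaled for depth, and the proteasome level also differed with depth. In beta cells under 4000 non-hormone UMIs it was 3310 CPM in HFD and 5251 CPM in chow. In those with 10000 or more it was 4377 CPM in HFD and 7808 CPM in chow. The part of depth in the heat shock classes was not tested. By depth, the members' median ratio ran from -1.06 to -0.51 over 5 classes of non-hormone UMIs. By insulin share, it ran from -0.96 to -0.51 over the 4 classes with at least 20 cells in each library.

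In most of the remaining cell types the members were lower too, by less than in beta cells. Below the median of all genes, where 50% of genes lie, were 41 of 47 members in delta cells, 41 of 46 in PP cells, 37 of 45 in endothelial cells and 29 of 41 in macrophages, but 13 of 47 in alpha cells. The median relative ratio of the members was 0.19 in alpha cells, -0.21 in delta cells, -0.31 in PP cells, -0.17 in macrophages and -0.16 in endothelial cells. Lower by 0.5 or more were 1 of 47 members in alpha cells (7.43% of all genes), 2 of 47 in delta cells (4.39%), 7 of 46 in PP cells (7.59%), 4 of 41 in macrophages (9.3%) and 2 of 45 in endothelial cells (6.11%). Higher by that size were 3 members in alpha cells (6.83% of all genes), 0 in delta cells (6.91%), 1 in PP cells (11.6%), 2 in macrophages (12.9%) and 1 in endothelial cells (9.25%). Of 45 members tested in beta, alpha, delta, PP and endothelial cells, 40 had a lower ratio in beta cells than in each of the other 4 types, against 40.3% of all genes tested in these types. By a gap of at least 0.5 to each of the 4, 17 of 45 did, against 5.24% of all genes. Of these 45, Psmd1, Psmd2, Psmd5, Psme3 and Psmf1 were not lowest in beta cells. Psmb9, not tested in endothelial cells and so not among the 45, stood at -0.80 in PP and -0.75 in beta cells. Macrophages were not part of this comparison, and some members, among them Psmd7 and Psmd11, had a lower ratio there than in beta cells. Without replicate libraries these differences between types were not tested.

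**Figure D4:**
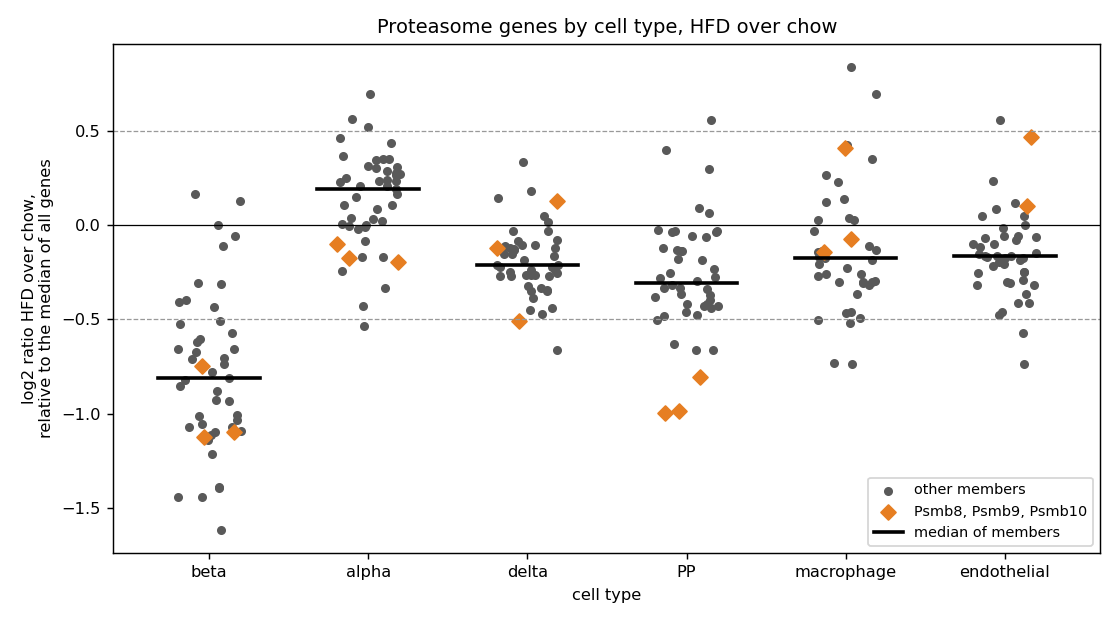
Log2 ratio of HFD over chow, relative to the median of all genes tested, for each tested proteasome gene in 6 cell types; orange diamonds are Psmb8, Psmb9 and Psmb10, black bars the median of the members and dashed lines a size of 0.5. The medians are -0.81 in beta, 0.19 in alpha, -0.21 in delta, -0.31 in PP and -0.16 in endothelial cells, and -0.17 in macrophages.

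In alpha cells the members were slightly higher in the HFD library. The summed level was 6268 CPM in HFD and 5510 CPM in chow, a relative log2 ratio of 0.16 (interval 0.13 to 0.18), with 33 of 47 members above the median and 13 below. The highest were the lid gene Psmd12 (66.3 CPM in HFD, 40.1 CPM in chow, 0.70), the ATPase gene Psmc3 (84.7 CPM in HFD, 56.1 CPM in chow, 0.57) and Psme4 (46.4 CPM in HFD, 31.6 CPM in chow, 0.52). The lowest were Psme2b (-0.53, interval -1.25 to 0.12), the core chaperone gene Psmg4 (120 CPM in HFD, 158 CPM in chow, -0.43) and Psme3 (-0.33). Hspa1a and Cd63 were lower in HFD alpha cells too, at 0.966 and 369 per 1000000 of all UMIs in HFD against 29.6 and 687 in chow. Cd63 was also lower in HFD delta cells (1714, against 2270 in chow), PP cells (452, against 883) and endothelial cells (168, against 269), where most members were lower too. Hspa1a was lower there as well, at 13.3 in HFD and 82.4 in chow delta cells, 17.3 and 73.997 in PP cells, and 76.5 and 221 in endothelial cells. In macrophages Cd63 stood at 2738 in HFD and 3500 in chow, and Hspa1a at 184 in HFD and 117 in chow. The part of both genes in these types was not tested.

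In delta cells the summed level was 7433 CPM in HFD and 8659 CPM in chow (-0.23, interval -0.26 to -0.21). Psme2b (-0.66), Psmb8 (97.7 CPM in HFD, 138 CPM in chow, -0.51) and Psmc4 (118 CPM in HFD, 162 CPM in chow, -0.47) were lowest. Psme4 (0.33), Psmg4 (0.18) and Psmg3 (0.15) were highest, all with intervals that span 0. Macrophages had 8037 CPM in HFD and 8689 CPM in chow (-0.18, interval -0.24 to -0.13). Their lowest members were Psmd7 (-0.74), Psmc4 (-0.73) and Psma5 (-0.52) and their highest Psmg3 (0.84), Psmd9 (0.70) and Psmd10 (0.42), each of these 3 with under 50 counts per library. Endothelial cells had 11627 CPM in HFD and 12986 CPM in chow (-0.18, interval -0.21 to -0.15), with Psme3 (-0.73), Psmf1 (-0.57) and Psmd2 (-0.48) lowest and Psme4 (0.56), Psmb10 (0.47) and Psmd5 (0.24) highest. Psme4 was above the median gene in beta, alpha, delta, PP and endothelial cells. In macrophages Psme4 had too few counts to be tested, with 19.2 CPM in HFD and 31.1 CPM in chow.

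In PP cells the inducible catalytic subunits were lower in the HFD library. Psmb8 had 96.8 CPM (79.6 to 117) in HFD and 195 CPM (172 to 221) in chow PP cells, a relative ratio of -0.999 (interval -1.34 to -0.67). Psmb10 had 128 CPM in HFD and 255 CPM in chow (-0.99), and Psmb9 38.7 CPM in HFD and 68.4 CPM in chow (-0.80). These 3 were the lowest of the tested members in PP cells. Psme2b, with 9 counts in HFD and 36 in chow, was under the minimum of 50 and stood at -1.75 (interval -3.05 to -0.73). In the same cells the lid genes had a summed ratio of -0.16. The highest members were Psme4 (0.56), Psme3 (0.40) and Psmd5 (0.30), with intervals that span 0. The 5 PP cells with the most Psmb8 UMIs held 19.1% of its UMIs in HFD and 13.9% in chow.

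The inducible subunits as a share of the catalytic subunits differed between types. Psmb8, Psmb9 and Psmb10 made up 28.3% of the UMIs of the 6 catalytic genes in HFD and 25.4% in chow beta cells (exact Clopper-Pearson intervals 27.4 to 29.2% and 24.8 to 25.9%). In alpha cells the shares were 20.3% in HFD (18.8 to 21.9%) and 25.04% in chow (23.6 to 26.5%). In PP cells they were 29.1% in HFD (26.3 to 31.97%) and 37.8% in chow (35.5 to 40.1%). In endothelial cells they were 15.3% in HFD (13.5 to 17.2%) and 11.7% in chow (10.3 to 13.1%). For single pairs in beta cells, Psmb8 was 31.2% of Psmb8 and Psmb5 in HFD and 26.97% in chow, and Psmb9 was 16.1% of Psmb9 and Psmb6 in HFD and 10.9% in chow. Psmb10 went the other way, with 38.4% of Psmb10 and Psmb7 in HFD (36.7 to 40.2%) and 42.96% in chow (41.8 to 44.1%). For the pooled share in these 4 types the intervals of the 2 libraries did not overlap, with HFD higher in beta and endothelial cells and lower in alpha and PP cells. They overlapped in delta cells (27.9% in HFD, 27.3% in chow) and macrophages (33.8% in HFD, 30.3% in chow). The catalytic genes also differ in transcript length. Psmb5 and Psmb6 are in the class under 1000 bases, Psmb7, Psmb9 and Psmb10 from 1000 to 1500, and Psmb8 from 1500 to 2500. In beta cells the medians of all genes in these classes were -0.52, -0.38 and -0.15. Psmb10 and Psmb7 are thus of the same class, unlike the other pairs. Whether length bears on the shares was not tested. UMIs at the 3' end of different genes need not be captured equally, so the share is compared between cells and is not the share of assembled immunoproteasome.

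**Figure D5:**
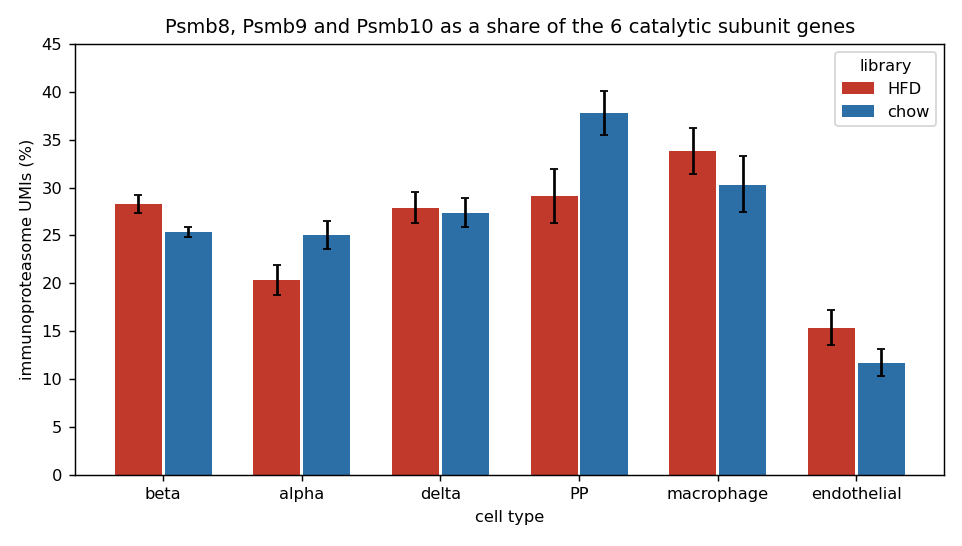
Psmb8, Psmb9 and Psmb10 as a percentage of the UMIs of the 6 catalytic subunit genes, by cell type, HFD in red left of chow in blue, with exact 95% intervals of counting error. HFD is higher in beta cells (28.3%, against 25.4% in chow) and lower in PP cells (29.1%, against 37.8% in chow).

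Psmb8 marked macrophages most clearly. It had 370 CPM in HFD and 389 CPM in chow macrophages, against 51.1 to 97.7 CPM in HFD and 63.4 to 195 CPM in chow endocrine cells. At a fixed depth of 1500 non-hormone UMIs, the expected share of cells with a Psmb8 UMI was 39.98% of HFD and 43.8% of chow macrophages. In beta cells it was 6.83% in HFD and 12.004% in chow. Unthinned, 91.4% of HFD and 90.7% of chow macrophages had a UMI, and 25.3% of HFD and 36.9% of chow beta cells. At that depth 6 HFD and 13 chow beta cells were too shallow to enter. Psmb8 also had 137 UMIs in HFD and 162 in chow endothelial cells, and no type without Psmb8 was found to set its background.

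Levels of the members as a whole also differed between types. Of the 47 members other than the testis and thymus forms, 33 in HFD and 34 in chow had their highest CPM in endothelial cells. Beta cells had the highest level of 1 of these members, Psme4, in both libraries, and in HFD also of Psmf1. The order of the summed levels in HFD was endothelial (11627 CPM), macrophage (8037 CPM), delta (7433 CPM), PP (6637 CPM), alpha (6268 CPM) and beta (3874 CPM). In chow it was endothelial (12986 CPM), macrophage (8689 CPM), delta (8659 CPM), PP (8454 CPM), beta (6312 CPM) and alpha (5510 CPM). Beta and alpha cells thus changed places.

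A small set of beta cells was rich in interferon-stimulated genes. Cells with at least 5 UMIs, not scaled for depth, over Ifit1, Ifit3, Irf7, Rsad2 and Isg15 numbered 25 in HFD and 56 in chow. The 3 inducible subunits summed to 432 CPM in these HFD cells and 703 CPM in these chow cells, against 133 and 242 CPM in the other beta cells. The constitutive subunits were at 418 CPM in these HFD cells and 840 CPM in these chow cells, against 344 and 730 CPM in the others. Psme1 and Psme2 together had 593 CPM in HFD and 890 CPM in chow interferon cells, against 284 and 504 CPM in the others. The inducible subunits and the PA28 genes were thus higher in interferon cells of both libraries. Without these cells, 37 of 47 members were lower by 0.5 or more in HFD, as with them, against 12.3% of all genes.

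Other genes of the ubiquitin and proteasome pathway did not move as one. Of 30 genes of a list drawn up for this report, 20 were below the median of all genes in beta cells and 10 above, with 6 lower and 0 higher by 0.5 or more (median -0.09), against 12.3% and 6.06% of all genes. Among the lowest were the ubiquitin gene Ubb (1025 CPM in HFD, 2285 CPM in chow, -1.34) and the proteasome-bound thioredoxin-like gene Txnl1 (86.7 CPM in HFD, 147 CPM in chow, -0.94). Partners of the complex outside the Psm names were lower too, with Adrm1, a ubiquitin receptor, at -0.70 and Pomp, the maturation factor of the core, at -0.69. The highest were Nfe2l2 (44.5 CPM in HFD, 29.6 CPM in chow, 0.41), which encodes NRF2, Ddi2 (48.1 CPM in HFD, 33.9 CPM in chow, 0.33), which encodes the protease that activates NRF1, and the shuttle factor gene Ubqln2 (0.28). Nfe2l1 itself stood at 0.04, with 187 CPM in HFD and 160 CPM in chow. Adrm1, Pomp and Nfe2l1 are named for their roles and lay outside the 3 lowest and 3 highest.

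Complexes of related build or shape also had most genes below the median in beta cells, where 12.3% of all genes were lower by 0.5 or more. The COP9 signalosome, which shares its architecture with the lid, had 7 of 9 genes below and 2 lower by 0.5 or more, with a median of -0.36. Translation factor eIF3, a further relative of the lid, had 10 of 12 genes below and 4 lower by that size (median -0.30). The CCT chaperonin, a stacked ring that folds tubulin and actin, had 7 of 7 matched genes below and 3 lower by that size (median -0.48). Cct6a of the chaperonin and Eif3j of eIF3 were not matched by symbol and are not in these counts. The median of the lid itself was -0.60. By the summed ratio the CCT genes were at -0.50 (interval -0.53 to -0.47) and the lid at -0.53 (-0.56 to -0.50), with intervals that overlap. All of these genes come from the same cells, and no test set one complex against another.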

How the data were processed

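Counts of UMIs per gene and barcode were used as deposited by the authors, without normalization. The submitters' processing notes name Cell Ranger 2.1.0. Build and annotation: not given in the sources used here. Removed were 145 HFD and 122 chow barcodes that had fewer than 500 genes or more than 10% mitochondrial UMIs. No doublet caller was run. Instead, barcodes that met the threshold of more than 1 hormone were removed, 113 in HFD and 146 in chow. Counts were summed per type and library with numpy 2.4.6 and scipy 1.17.1, divided by the UMIs outside Ins1, Ins2, Iapp, Gcg, Sst, Ppy and Pyy, and 0.5 counts were added for log2 ratios. Intervals of ratios are exact conditional binomial ones at 95%. Beta cell sums held 20308955 non-hormone UMIs in HFD and 27412675 in chow, those of macrophages 885920 and 513868. With 1 library per diet no p-value was computed. The ratio code was tested on simulated data. Named genes were the 2 lowest and the highest of each part of the complex in beta cells, all inducible and regulator genes, and the 3 lowest and highest elsewhere. Members and lists were chosen with earlier results of these data known. One gene that this rule names is not reported here.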

Additional observations from a re-analysis of the deposited data

Results flagged for a closer look

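The proteasome genes went opposite ways in beta and alpha cells of the same 2 libraries. Their summed relative log2 ratio of HFD over chow was -0.88 in beta cells and 0.16 in alpha cells, a difference of -1.04. Of 47 members tested in both types, 32 were below the median of all genes in beta cells and above it in alpha cells, as were 24.1% of all genes tested in both. The difference between the types was not tested, since each diet has 1 library.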

How the results depend on the processing

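Over the alternatives run at a size of 0.5, the beta cell count of members lower by that size (37) ranged from 29 to 37, apart from 11 with cells matched on Cd63. The share of all genes lower by that size ranged from 6.64% to 14.1%, and was 5.42% with cells matched on Cd63. At a size of 0.25 the count was 42, against 25.95% of all genes. The cause of the lower count at equal Cd63 was not tested. The count below the median in beta cells (45) ranged from 42 to 45. Matching cells on depth or insulin share, chosen after seeing the data, gave 37 lower by 0.5 or more, against 13.5% and 12.4% of all genes. With at least 500 summed counts, fewer genes were tested, and the members below the median were 3 of 29 in alpha cells, 12 of 12 in PP cells and 6 of 6 in macrophages. Without the deepest 5% of cells the share of inducible subunits in chow beta cells was 25.9%. All 25 named members at 0.5 or more in size kept their direction. No paired analysis was possible because each diet has 1 library. In macrophages, with 8 members under 50 counts, depth limits the smaller genes.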
